A study of Arabidopsis thaliana with 6 samples.

Results

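The miR160, miR164 and miR393 families are microRNAs (miRNAs) linked to auxin, and their products were taken as every listed small RNA that matched, over its full length and without mismatch, the sense strand of the precursors MIR160a to c, MIR164a to c, MIR393a or MIR393b. These 8 are among 326 annotated miRNA precursors, and by this rule 9 of the 18124 listed sequences belonged to them, 2 to miR160, 3 to miR164 and 4 to miR393. The 9 were part of 317 sequences that matched any annotated miRNA precursor of Arabidopsis thaliana. Small RNAs were sequenced from leaves of untreated wild-type plants (WT) and of untreated plants of the rdr1 mutant, as 3 libraries per genotype, all grown under 16 h of daylight at 22 °C. The labels name neither the mutant allele nor the age of the plants, and leave unsaid whether replicate libraries stem from different plants, so the tests measure only the spread between these libraries, which may be technical. The enzyme RDR1, an RNA-dependent RNA polymerase, makes the complementary strand of the double-stranded RNA from which some small RNAs are cut. The comparison bears on small RNA levels in this rdr1 mutant, and whether it lacks all RDR1 is not stated.

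A plant miRNA is cut by DCL1 from a folded precursor as a duplex of a 5p and a 3p strand, and 1 strand is usually kept in an ARGONAUTE protein, where it guides cleavage or repression of complementary mRNAs. MiR160 acts on the mRNAs of ARF10, ARF16 and ARF17, auxin response factors that repress auxin-responsive genes. MiR164 acts on mRNAs of NAC transcription factors, among them CUC1 and CUC2, which set organ boundaries and leaf margin shape, NAC1, which acts in lateral root formation, and ORE1, which promotes leaf ageing. The 5p strand of miR393 acts on the mRNAs of the auxin receptors TIR1, AFB1, AFB2 and AFB3, and its 3p strand from MIR393b is known to load into AGO2 and to act on MEMB12, a protein of Golgi vesicle transport, in antibacterial defence.

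The 4 annotated mature sequences that were listed are shown first because together they carry most of the reads. Of the 4, miR164c-5p was minor, with a mean of 73.5 over all libraries. The seed (bases 2 to 8) is in capitals, and sequences are read 5′ to 3′ in DNA letters.
miR160abc-5p: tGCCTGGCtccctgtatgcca
miR164ab-5p: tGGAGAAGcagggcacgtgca
miR164c-5p: tGGAGAAGcagggcacgtgcg
miR393b-3p: aTCATGCGatctctttggatt
The 5 other listed sequences were all of 20 nt and are shown because they show where the products vary, at the 3′ end in all 3 families and at the 5′ end in miR393.
miR160abc-5p, 20 nt: tGCCTGGCtccctgtatgcc
miR164abc-5p, 20 nt: tGGAGAAGcagggcacgtgc
miR393b-3p, 3′ end shortened: aTCATGCGatctctttggat
miR393b-3p, 5′ end shortened: tCATGCGAtctctttggatt
miR393a-3p, 5′ end shortened: tCATGCTAtctctttggatt

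The 5 products of the miR160 and miR164 families began with T (U in the RNA), the base that is known to favour loading into AGO1, and shared 1 seed per family. Of the 4 miR393 products, miR393b-3p and its 3′-shortened form began with A, the base known to favour AGO2, and the 2 products shortened by 1 base at the 5′ end began with T and had a seed moved by 1 base. The G+C content was 61.9% to 66.7% in the products of miR160 and miR164 and 35.0% to 40% in those of miR393. The products of MIR164c and of MIR164a and b differed by A21G, with the base of miR164ab first and positions counted from 1 at the 5′ end. The 5′-shortened products of MIR393b and MIR393a differed by G7T in the same notation, so this difference lay in the seed.

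The precursors of the annotation (TAIR10.1) lay on 4 chromosomes. MIR160a (AT2G39175) lay at chr2:16340279-16340363, MIR160b (AT4G17788) at chr4:9888982-9889070 and MIR160c (AT5G46845) at chr5:19009094-19009182 on the minus strand, while the other 7 precursors were on the plus strand. MIR164a (AT2G47585) lay at chr2:19520752-19520864, MIR164b (AT5G01747) at chr5:287584-287736 and MIR164c (AT5G27807) at chr5:9852674-9852775. MIR393a (AT2G39885) lay at chr2:16652101-16652233 and MIR393b (AT3G55734) at chr3:20691647-20691806. The precursors of MIR160a, MIR164a, MIR393a and MIR393b are printed with all listed products in capitals, to show which arm was seen.
MIR160a: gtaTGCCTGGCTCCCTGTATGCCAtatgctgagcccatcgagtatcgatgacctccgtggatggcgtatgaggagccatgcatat
MIR164a: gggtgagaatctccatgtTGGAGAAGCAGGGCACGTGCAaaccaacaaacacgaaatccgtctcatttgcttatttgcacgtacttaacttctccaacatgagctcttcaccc
MIR393a: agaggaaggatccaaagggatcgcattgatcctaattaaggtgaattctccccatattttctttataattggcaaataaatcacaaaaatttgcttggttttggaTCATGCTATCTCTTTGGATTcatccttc
MIR393b: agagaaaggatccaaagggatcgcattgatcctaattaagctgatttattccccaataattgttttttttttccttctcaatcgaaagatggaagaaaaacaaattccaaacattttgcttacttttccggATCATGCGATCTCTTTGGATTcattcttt

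All listed products of the miR160 and miR164 families came from the 5p arm, and all listed products of miR393 came from the 3p arm. This describes the listed sequences only, and the levels of the 5p and 3p arms were not compared. In the predicted minimum free energy folds of the 8 precursors (RNAfold), the bases covered by listed products were mostly paired, from 16 of 21 in MIR164b to 21 of 21 in MIR393b. The annotation gives 14 mature entries for the 8 precursors, which are 10 distinct sequences, and 4 of these were listed. The opposite strands miR160a-3p, miR160c-3p, miR164b-3p and miR164c-3p, the shared miR393-5p and the full-length miR393a-3p were not analysed here. Of these precursors, 0 had a listed antisense sequence.

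**Figure D1:**
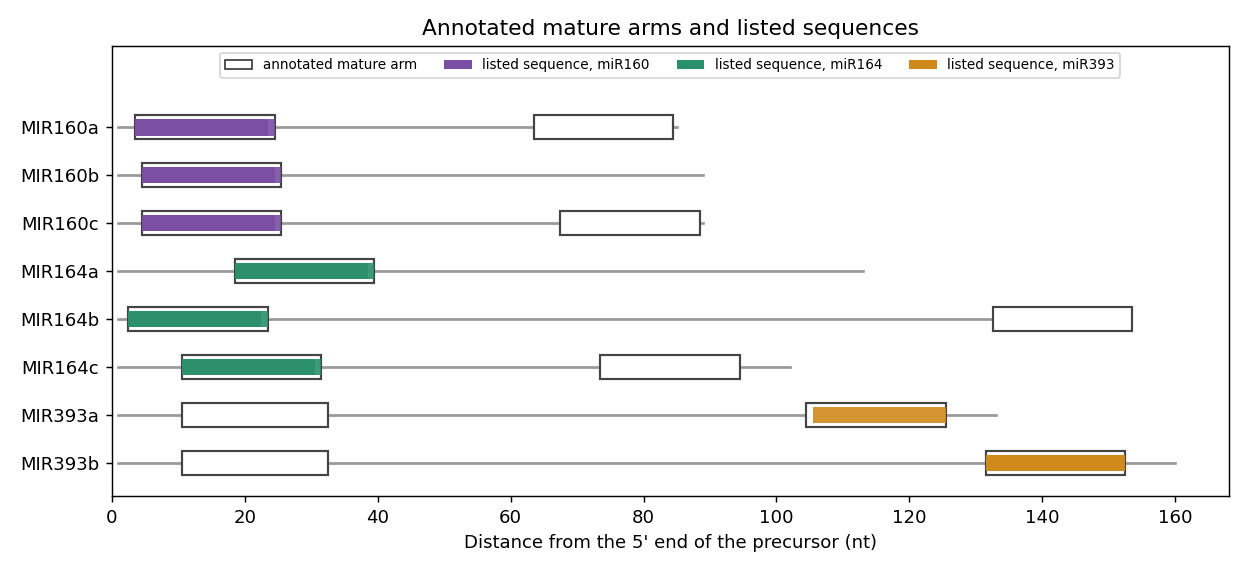
The 8 precursors drawn from their 5′ end in nt (x axis), with open boxes for the 14 annotated mature entries and filled bars for listed sequences. Filled bars lie in the 5p arm of the MIR160 and MIR164 precursors and in the 3p arm of MIR393a and MIR393b.

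The products of miR160 and most of the value of miR164 could not be tied to 1 precursor. The 21-nt and 20-nt products of miR160 matched MIR160a, MIR160b and MIR160c alike, each with 3 genome matches. MiR164ab-5p matched MIR164a and MIR164b, and its 20-nt form also matched MIR164c, because it lacks the last base at which they differ. MiR164c-5p and the 4 products of miR393 each had 1 genome match and were tied to 1 precursor.

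Values are normalised read counts, in which 1 read was worth 0.804 to 1.71. If the values are per 8000000 reads, which is not stated, these steps correspond to totals of 4668411 to 9955668 reads per library, and what such a total counts is not known. The libraries differed in fragment length, with sequences of 20 to 22 nt, the length of miRNAs, at 26.5% of the listed value in WT replicate 1 and 37.8% to 55.0% in the other 5 libraries, and sequences of 28 to 34 nt at 35.3% in WT replicate 1 and 4.87% to 26.2% in the others. The summed value of all miRNA precursor sequences made up 14.4% of the listed value in WT replicate 1 and 22.6% to 34.9% in the others. All 9 products of miR160, miR164 and miR393 had their lowest value in WT replicate 1, as had 51 of the 61 miRNA families. The part of these library differences in the values below was not tested. In leaf RNA, fewer cells with a miRNA and less of it per cell cannot be told apart.

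MiR164ab-5p was the most abundant of the 9 products, at 2537, 4340 and 6511 in WT replicates 1 to 3 and 6389, 6250 and 4155 in rdr1 replicates 1 to 3. WT replicate 1 was low, and the rdr1 values lay inside the WT range, so the groups overlapped. The WT mean was 4463 ± 1990, from 14724 reads, and the rdr1 mean 5598 ± 1251, from 12169 reads (SD, n = 3 each). The log2 fold change of rdr1 against WT was 0.40 (SE 0.71, limma adjusted p = 0.755).

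MiR164c-5p, the product of the third locus, was 57.1 to 81.0 times less abundant than miR164ab-5p in the 6 libraries. Its values were 33.5, 57.8 and 114 in WT and 99.1, 77.1 and 59.4 in rdr1, with WT replicate 1 lowest and WT replicate 3 highest, so the groups overlapped. The log2 fold change was 0.34 (SE 0.70, limma adjusted p = 0.769). The 20-nt form shared by MIR164a, b and c had 53.8, 109 and 137 in WT and 152, 134 and 75.1 in rdr1, with overlapping groups, and its log2 fold change was 0.31 (SE 0.66; limma, adjusted p = 0.773).

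MiR393b-3p was next in abundance to miR164ab-5p, at 2261, 3829 and 4370 in WT and 2909, 5138 and 4715 in rdr1. WT replicate 1 and rdr1 replicate 1 were the lowest of their genotype, and the groups overlapped. The WT mean was 3486 ± 1095, from 11294 reads, and the rdr1 mean 4254 ± 1184, from 9208 reads (SD, n = 3 each). This is a log2 fold change of 0.30 with an SE of 0.69 (limma adjusted p = 0.781).

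The shortened forms of miR393-3p were minor. The 5′-shortened form of miR393b-3p had 40.7, 125 and 100.4 in WT and 67.7, 132 and 115 in rdr1, and the 3′-shortened form 32.0, 81.0 and 97.2 in WT and 84.0, 90.8 and 75.1 in rdr1. MiR393a-3p, listed only as its 5′-shortened form, had 16.0, 64.1 and 77.1 in WT and 52.7, 58.3 and 66.6 in rdr1, down to 11 reads in WT replicate 1. Groups overlapped for all 3, with log2 fold changes of 0.33 (SE 0.67), 0.39 (SE 0.69) and 0.44 (SE 0.73). Among 5′-shortened 20-nt forms, that of MIR393b was 1.29 to 2.55 times as abundant as that of MIR393a in each of the 6 libraries.

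MiR160abc-5p had 455, 732 and 932 in WT and 1130, 970 and 705 in rdr1, with WT replicate 1 lowest and rdr1 replicate 1 highest, and the groups overlapped. The WT mean was 707 ± 239, from 2296 reads, and the rdr1 mean 935 ± 215, from 2049 reads (SD, n = 3 each). This is a log2 fold change of 0.44 with an SE of 0.61 (limma adjusted p = 0.753). Its 20-nt form, which lacks the last A, was the least abundant of the 9 products and the 1 whose groups did not overlap. It had 1.45, 13.3 and 13.7 in WT and 25.1, 17.1 and 20.6 in rdr1, from 33 and 47 reads, of which 1 read was in WT replicate 1. The WT mean was 9.49 ± 6.96 and the rdr1 mean 20.9 ± 3.99 (SD, n = 3 each). The fitted log2 fold change was 1.44, with an SE of 1.02 and an adjusted p of 0.753 in limma, and the exact two-sided permutation p was 0.1 (n = 3 each), the smallest that 3 against 3 can give. Without WT replicate 1 its log2 fold change was 0.58, and with a pseudocount of 20 in place of 1 it was 0.50. Of the 18043 sequences tested, 5.29% had groups without overlap.

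**Figure D2:**
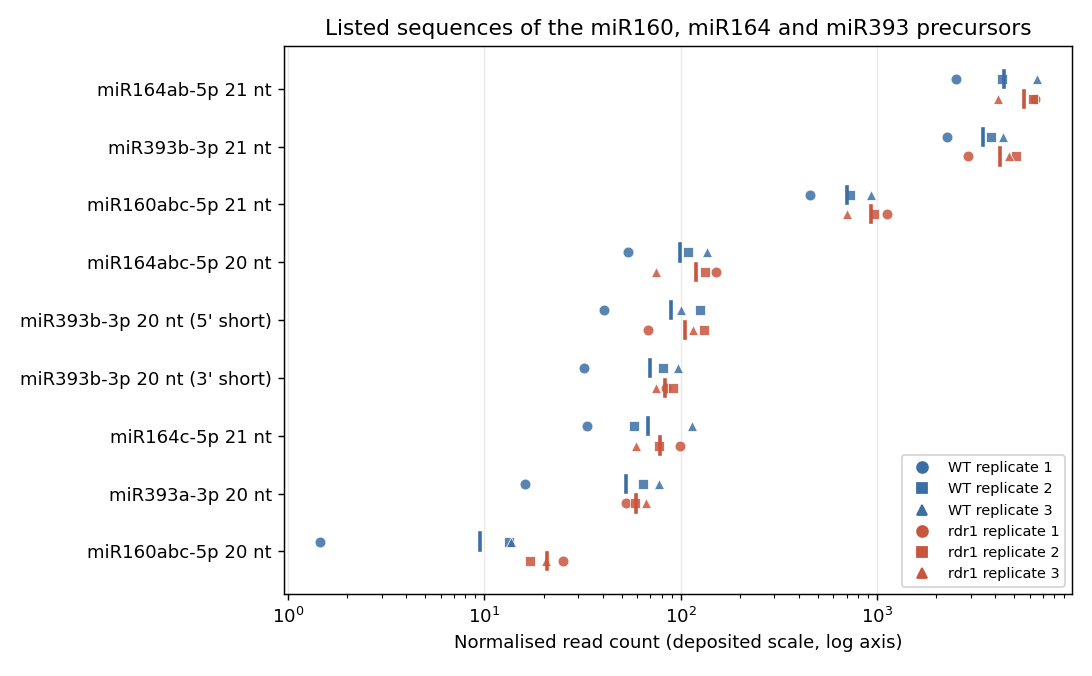
Normalised read count of each of the 9 products (x axis, log scale) in the 6 libraries, with WT in blue, rdr1 in red, a symbol for each replicate number and a vertical bar at the mean of each genotype. WT replicate 1 is the lowest point of every product, and the genotypes overlap for all but the 20-nt form of miR160.

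The limma test called 0 of the 9 products at a Benjamini-Hochberg adjusted p under 0.05 over 18043 sequences, with 0 of the 9 at an unadjusted p under 0.05. Over all sequences 39 were called, which is 0.216%, so that a count of 0 in 9 was near the background. EdgeR and DESeq2 on recovered reads also called 0 of the 9, against 0.432% and 0.787% of all sequences. The log2 fold change was above 0 for all 9, with a median of 0.39. Its direction was not the same under every scaling. With median of ratios scaling, in which the median over all sequences was 0.01 in place of 0.47, 1 of the 9 was above 0. With the miRNA sum of each library set equal, 9 of the 9 were above 0, with a median of 0.10. EdgeR gave 7 of the 9 above 0 and DESeq2 2 of the 9. Without WT replicate 1, 4 of the 9 were above 0. No direction is therefore given for these products, and the count of 0 called does not show that their levels are alike. Relative to the median of all sequences the log2 fold changes were -0.18 to -0.04 for 8 products and 0.96 for the 20-nt form of miR160.

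In order of abundance, miR164 and miR393 were close and miR160 was lower. Summed over its 3 products, miR164 had 2624, 4507 and 6762 in WT and 6640, 6460 and 4290 in rdr1. MiR393 had 2349, 4099 and 4645 in WT and 3113, 5419 and 4972 in rdr1 over its 4 products. MiR160 had 457, 746 and 946 in WT and 1155, 987 and 726 in rdr1. MiR160 was below the other families in 6 of 6 libraries. MiR164 was above miR393 in 5 of 6, with rdr1 replicate 3 the exception, and the means of these neighbours (in WT 4631 ± 2072 and 3698 ± 1199, in rdr1 5797 ± 1308 and 4501 ± 1223, SD, n = 3 each) differed by less than their SDs in WT and in rdr1 by less than the SD of miR164. Among the products below miR160abc-5p, the 5 with means over all libraries of 55.8 to 109.9 had ranges that overlapped each other. These sums are of listed sequences, and for miR393 they hold no 5p strand.

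Of the 61 miRNA families with a listed sequence, miR164 ranked 15th by mean level, miR393 17th and miR160 27th. Over the 6 libraries the rank was 15 to 17 for miR164, 15 to 19 for miR393 and 27 to 28 for miR160. As a share of the summed miRNA value, miR164 held 0.870% ± 0.0548 in WT and 0.948% ± 0.172 in rdr1, miR393 held 0.720% ± 0.0978 and 0.740% ± 0.194, and miR160 held 0.139% ± 0.0167 and 0.157% ± 0.0327 (SD, n = 3 each). The exact two-sided permutation p was 0.5, 1 and 0.6 in the same order, and 0.9, 1 and 0.9 after adjustment over the 3 shares.

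Family sums were compared between the genotypes by limma over all 61 families, of which 0.0% were called and 1 had an unadjusted p under 0.05. The log2 fold change was 0.45 for miR160 (95% interval -0.54 to 1.45), 0.40 for miR164 (-0.54 to 1.34) and 0.30 for miR393 (-0.63 to 1.24), each with an adjusted p of 0.801. With the miRNA sum of each library set equal, the log2 fold changes were 0.16 for miR160, 0.11 for miR164 and 0.011 for miR393, and the 95% intervals reached 0.44, 0.36 and 0.46 to either side in that order. The intervals are wide, and a p that misses the threshold does not show that the levels are alike. The median over all 61 families was 0.35, and relative to it the values were 0.10, 0.05 and -0.05, which placed the families at ranks 18, 26 and 38 of 61 from the highest log2 fold change down. EdgeR called 0 families, with 2 at an unadjusted p under 0.05, and DESeq2 called 1, miR159, which is named after its value was seen. The genotypes overlapped for all 3 families, and they did not overlap for 1.64% of the 61.

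**Figure D3:**
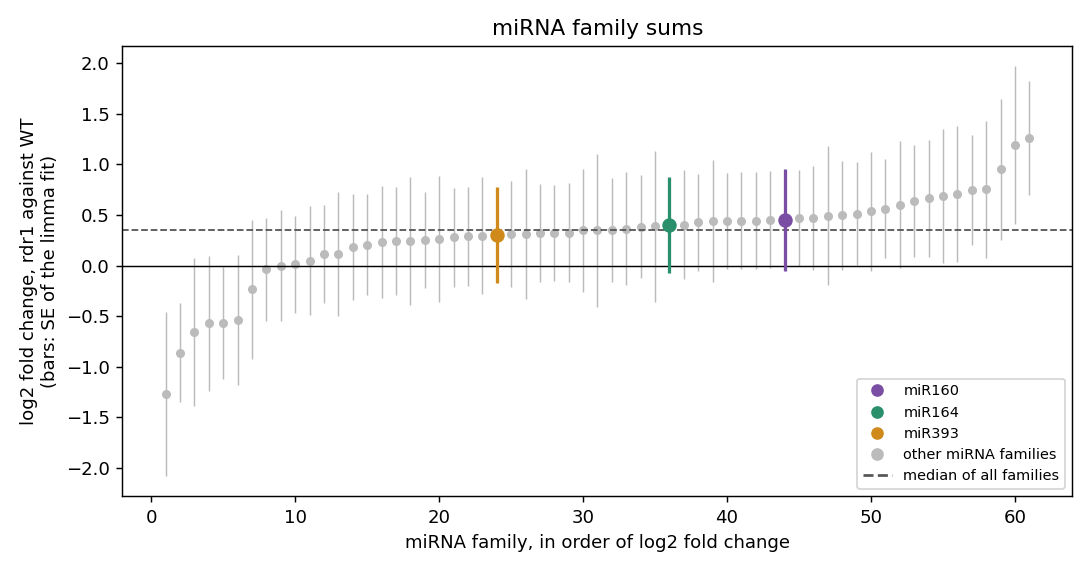
Log2 fold change of rdr1 against WT (y axis) for each of 61 miRNA families in order of that value (x axis), with bars for the SE of the limma fit, a solid line at 0 and a dashed line at the median of all families, 0.35. MiR160, miR164 and miR393, in colour, lie between 0.30 and 0.45, close to the dashed line.

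Ratios between families within a library do not depend on how that library was scaled. The ratio of miR164 to miR160 had the narrowest range of the 3 over the 6 libraries, at 5.75, 6.04 and 7.15 in WT and 5.75, 6.55 and 5.91 in rdr1. The ratio of miR164 to miR393 was 1.12, 1.10 and 1.46 in WT and 2.13, 1.19 and 0.863 in rdr1, and that of miR393 to miR160 was 5.14, 5.50 and 4.91 in WT and 2.69, 5.49 and 6.85 in rdr1. In rdr1 replicate 1 miR393 was low against both other families, and in rdr1 replicate 3 it was high against both. Sequences of 17 to 19 nt made up 35.2% of the listed value in rdr1 replicate 1 and 13.6% in rdr1 replicate 3, and their part in these ratios was not tested. The differences in log2 ratio between the genotypes were 0.10, -0.05 and -0.15 for miR164 to miR393, miR164 to miR160 and miR393 to miR160, with exact two-sided permutation p-values of 0.8, 0.7 and 0.9 (n = 3 each) and 0.9 for each after adjustment over the 3 ratios.

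**Figure D4:**
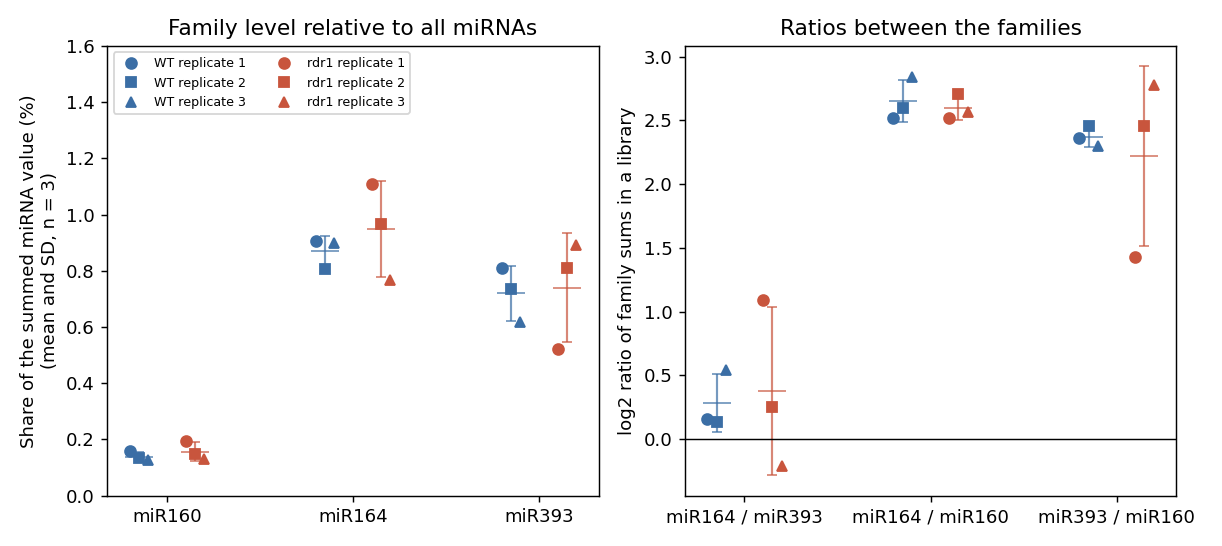
Left, share of each family in the summed miRNA value in percent, and right, log2 ratio of the family sums within a library, for WT in blue and rdr1 in red, with a symbol for each replicate number and bars for mean and SD (n = 3). The ratio of miR164 to miR160 has the narrowest range over the 6 libraries, and both ratios with miR393 spread in rdr1, where replicates 1 and 3 lie apart.

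Within each family most of the value was in the 21-nt form. For miR160 this share was 98.8% ± 0.769 (WT) and 97.8% ± 0.555 (rdr1). It was 97.8% ± 0.216 and 97.96% ± 0.269 for miR164, and 94.6% ± 1.47 and 94.4% ± 0.803 for miR393 (SD, n = 3 each). The exact two-sided permutation p was 0.2, 0.6 and 1. The mature miR164ab sequence alone held 96.4% ± 0.216 of its family in WT and 96.6% ± 0.341 in rdr1 (exact p = 0.6, n = 3 each). The 20-nt form held 0.318%, 1.79% and 1.44% of miR160 in WT and 2.17%, 1.74% and 2.84% in rdr1, so that as a share the groups overlapped. The 95% Wilson interval in WT replicate 1 was 0.0562% to 1.78%, and such an interval covers only counting error, since reads and not molecules were counted.

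The listed products tied to MIR164c and to MIR393a held small shares of their families, while the 3 tied to MIR393b held the rest of miR393. Full-length miR393b-3p is counted here, but MIR393a was listed only as its 5′-shortened 20-nt form. These shares of miR393 therefore do not compare the 2 loci on equal terms. Between the 5′-shortened 20-nt forms, the ratio of MIR393b to MIR393a was 1.29 to 2.55 over the 6 libraries. MiR164c-5p held 1.27%, 1.28% and 1.69% of miR164 in WT and 1.49%, 1.19% and 1.38% in rdr1 (exact two-sided permutation p = 0.8, n = 3 each). MiR393a-3p held 0.681%, 1.56% and 1.66% of miR393 in WT and 1.69%, 1.08% and 1.34% in rdr1 (exact p = 0.8, n = 3 each), with WT replicate 1 lowest at 11 of 1615 reads. The adjusted p over the 6 shares within families was 0.96 to 1, and the share of miR393a-3p was added after its values were seen.

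The sites at which these miRNAs pair with their known target mRNAs are shown because they connect the measured sequences to the auxin and NAC genes. In each site, read 5′ to 3′ on the mRNA in DNA letters, capitals mark bases with Watson-Crick pairing to the miRNA, found by a scan without gaps of the transcripts of 31460 genes.
ARF10: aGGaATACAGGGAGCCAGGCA
ARF16: gGGttTACAGGGAGCCAGGCA
ARF17: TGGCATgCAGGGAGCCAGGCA
CUC1: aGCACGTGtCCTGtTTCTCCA
CUC2: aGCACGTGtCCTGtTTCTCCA
NAC1: aGCACGTaCCCTGCTTCTCCA
ORE1: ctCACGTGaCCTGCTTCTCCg
In the counts below, paired bases are those in Watson-Crick pairs, without G-U pairs. For miR160, the sites were those of ARF17 (chr1:29274189-29274209, plus strand, 20 of 21 bases paired), ARF10 (chr2:12115741-12115761, plus strand, 19) and ARF16 (chr4:14704141-14704161, minus strand, 18). They were the 3 best of all genes by a penalty of 1 for a mismatch and 0.5 for a G-U pair. The penalty was doubled at positions 2 to 13 of the miRNA. The ARF17 site had 1 G-U pair and 0 mismatches. For miR164ab-5p, NAC080 and NAC100 had the lowest penalty, followed by NAC1 (chr1:20947142-20947162, minus strand, 19 of 21 paired). CUC1 (chr3:5111137-5111157, plus strand) and CUC2 (chr5:21902301-21902321, minus strand), with the same site and 18 paired bases, were among the best 6 genes, and ORE1 (chr5:15858797-15858817, minus strand, 17 paired) was among the best 15. All of these sites lay in coding sequence. For miR393b-3p the best site in MEMB12 without gaps had 16 of 21 bases paired. It is not shown, since 119 genes, MEMB12 included, had a site at least this good. A match describes letters, and mRNA levels of the targets were not measured.

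The 14 target genes named above, the auxin receptors included, carried 0 listed small RNAs on either strand. For TIR1, AFB2 and other targets of miR393, secondary small RNAs made after cleavage are known, and none of them reached the table, in which every sequence had at least 20.07 in 1 library. This limits abundant small RNAs only.

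Other small RNAs of the auxin pathway also gave 0 calls. MiR167, which acts on ARF6 and ARF8, miR390, which triggers trans-acting siRNAs from TAS3, miR847, which acts on IAA28, and the TAS3 locus, whose siRNAs act on ARF2, ARF3 and ARF4, carried 52 listed sequences. Of the 10 loci in this list 7 had a listed sequence, and MIR167c, TAS3b and TAS3c had 0. Limma called 0 of the 52 (0.216% of all sequences), with 0 at an unadjusted p under 0.05, and the median log2 fold change was 0.36 against 0.47 over all sequences. MiR167 was the most abundant, at 65868, 103215 and 169681 in WT and 133464, 169543 and 108809 in rdr1, with WT replicate 1 lowest and overlapping groups. The mean of miR390 was 1833 ± 722 in WT and 2165 ± 359 in rdr1, miR847 had 349 ± 187 and 426 ± 89.7, and the TAS3 locus had 2110 ± 931 and 2312 ± 32.5 (SD, n = 3 each), the last from 11 sense and 8 antisense sequences. The groups overlapped for all of them, and a p that misses the threshold does not show that the levels are alike.

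The 3 families were compared in pattern with 71 annotated mature miRNAs outside them, each with a mean of at least 20. Products of the 3 families were not compared with each other. The pattern over the 6 libraries most like that of miR160 was found for miR169a-3p (Pearson r of log2 values 0.99). Next came miR156a-5p and the family members of the same sequence (0.98) and miR171b-3p/miR171c-3p (0.97). The most like miR164 were miR171b-3p/miR171c-3p (0.99), miR847 (0.98) and miR157d (0.97). The most like miR393 were miR171b-5p (0.95), miR844-5p (0.94) and miR822-3p (0.91). The median r of the 71 was 0.82 for miR160, 0.87 for miR164 and 0.70 for miR393. The 6 points share the scaling and fragment lengths of their libraries, and the values are a description. Sequences of miR845a, miR845b and miR855, markers of pollen, were 0 in the table.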

How the data were processed

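Small RNA was measured in 6 leaf libraries, 3 of WT and 3 of rdr1. Per the labels' protocols, RNA was extracted with TRIzol, libraries were made with HD adapters and reads of 50 nt were obtained from 1 end on a HiSeq 2500. Per the submitters' processing notes, the genome was TAIR10. How reads were trimmed, aligned, filtered and scaled is not stated in these sources. Each deposited value is the normalised signal of 1 distinct sequence in 1 library, per the file headers. All were whole multiples of the value of 1 read within 0.01 of a read (100% of values), so reads were recovered.

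Sequences were matched to the precursors of the TAIR10.1 annotation (326 loci). A sequence that matched several families was divided equally between them. Sequences (mean of at least 5) and family sums were compared by limma's moderated test (trend option, two-sided) on log2(value + 1), which understates changes of low values, with Benjamini-Hochberg adjustment and a threshold of 0.05. Shares and ratios were compared by exact permutation tests. EdgeR (quasi-likelihood, TMM) and DESeq2 were run on recovered reads as alternatives, rounded to whole numbers for families. Libraries of a genotype differed by more than sampling noise (chi-square over degrees of freedom 8.59 to 52.1).

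The products, lists and tests were chosen with earlier results of these data known. The text names all 9 products, the listed targets and other auxin-linked loci. For each family it names the 3 miRNAs most alike in pattern from outside the 3 families. Folding used ViennaRNA 2.7.2, tests limma 3.58.1, DESeq2 1.42.0 and edgeR 4.0.16 under R 4.3.3, and summaries scipy 1.17.1 and pandas 2.3.3 under Python 3.11.15.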

Additional observations from a re-analysis of the deposited data

How the results depend on the processing

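The number of products called was 0 under each of the 17 alternatives run for it. With sequences of a mean of at least 20, 8 products were tested, without the 20-nt form of miR160. The adjusted p of the 3 family sums was 0.333 or higher under each of the 17 alternatives run for them. The alternative without a filter was run for the products alone, and that of 20 to 22 nt for the families alone. The sign of the small log2 fold changes was not stable. With median of ratios scaling they were -0.016 for miR160, -0.069 for miR164 and -0.17 for miR393. With WT replicate 1 and rdr1 replicate 1 left out together that of miR164 was -0.069, and for miR393 it was -0.013 with edgeR and -0.0087 with DESeq2. With 1 library left out, log2 fold changes were 0.16 to 0.68 for miR160, 0.04 to 0.73 for miR164 and 0.00463 to 0.55 for miR393, lowest without WT replicate 1 in each case. The number of miRNA families called rose from 0 to 1 (miR159) with sequences of 20 to 22 nt, with both replicates 1 left out and with DESeq2.

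Differences in shares, rdr1 minus WT in percentage points, are given as ranges with 1 library left out. They were -1.37 to -0.631 for the 21-nt share of miR160 and 0.0549 to 0.376 for miR164ab. For the 21-nt share of miR164 they were -0.0174 to 0.250, and for miR164c-5p -0.129 to 0.0775. For the 21-nt share of miR393 they were -0.793 to 0.618, and for the 5′-shortened miR393a-3p -0.243 to 0.247. As shares of the miRNA sum they ranged from -0.000157 to 0.0315 for miR160, from -0.00321 to 0.168 for miR164 and from -0.0551 to 0.130 for miR393. With both replicates 1 left out, the 21-nt share of miR393 differed by 1.08 and the share of the 5′-shortened miR393a-3p by -0.404. Ratios, chosen after the data were seen, differed on the log2 scale by -0.259 to 0.394 for miR164 to miR393, -0.118 to 0.0400 for miR164 to miR160 and -0.429 to 0.244 for miR393 to miR160 with 1 library left out, and with both replicates 1 left out by -0.319 for miR164 to miR393 and 0.239 for miR393 to miR160. The cause was not tested. The 21-nt share of miR160 could not be recomputed for sequences with a mean of at least 20, since 1 sequence was left.

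The replicate numbers were not treated as pairs in the main fits. Deviations of same-numbered libraries from their genotype means correlated at -0.72, -0.30 and -0.53. Libraries also differed in fragment length, so these values cannot show whether same-numbered libraries shared a batch. With the replicate number as a block the log2 fold changes were 0.45, 0.40 and 0.30, 0 products were called, and 7 of all sequences were called in place of 39. This count ranged from 7 with the block to 142 with DESeq2 over the alternatives. Depth limits the 20-nt form of miR160 (1 read in WT replicate 1) and miR393a-3p (11 reads).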
